A study of Mus musculus with 13 samples.

Results

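Gene expression was compared between Paneth cells and stem cells of the small intestine in old mice, as Paneth minus stem, over 6 of the 13 RNA sequencing libraries of the series. The libraries were chosen by their labels: 3 Paneth and 3 stem cell libraries of mice aged 20 to 22 months. All groups came from male Lgr5-eGFP-IRES-CreERT2 reporter mice on a C57Bl6/SV129 background, per the labels. This allele places green fluorescent protein and an inducible Cre at the Lgr5 gene, whose promoter is active in crypt base stem cells. Crypts came from the proximal small intestine, freed of villi. No treatment is named in the labels, and how the cell types were separated is not given in the sources used here. The 4 Paneth and 3 stem cell libraries of mice aged 2 to 3 months served as a separate set for the same comparison. Paneth libraries were made with a Clontech SMARTer Pico kit and stem cell libraries with standard Illumina protocols, so cell type and library kit cannot be told apart in any difference described here. The labels give each library as cells from a mouse but do not state that the mice of a group were different animals, so p-values measure the spread between these libraries, which may be technical.

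Paneth cells sit at the base of the crypt between the Lgr5+ stem cells. They package antimicrobial peptides, among them lysozyme and the alpha-defensins, into granules that are released into the crypt lumen. They also present Wnt, EGF and Notch ligands to the neighbouring stem cells, which divide and replace the epithelium. Wnt signalling acts through TCF/LEF factors in both cell types, on stem cell genes in the one and on granule genes in the other. Villus enterocytes, the absorptive cells, arise from the same stem cells and normally lie outside the crypt.

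The 3 Paneth libraries held 4210439, 5621349 and 8612228 reads on genes and the 3 stem cell libraries between 13634957 and 16185549. Levels are given as CPM, the usual depth-scaled read count, after TMM scaling within these 6 libraries. The 3 loci Esp38, Lars2 and Gm20594 took 41.9%, 26.7% and 28.1% of reads in the Paneth libraries and 10.04%, 8.80% and 6.38% in the stem cell libraries, without overlap. The means were 32.2% ± 8.38 and 8.41% ± 1.86 (SD, n = 3 each), with p = 0.1 in a two-sided exact permutation test; no smaller p is possible with 3 against 3 libraries. Spearman correlations across genes were 0.979 to 0.986 among stem cell libraries and 0.964 between Paneth 2 and Paneth 3, but 0.878 and 0.911 between Paneth 1 and the other Paneth libraries. Libraries of a group differed by more than sampling noise (chi-square per gene 15 to 83.8), and each was counted as 1 replicate. In a principal component analysis the first component, 72.2% of the variance, separated the cell types, and the second, 17.6%, set Paneth 1 (97.6) apart from the other 5 libraries (-59.8 to 2.6). Paneth 1 had the most granule RNA, while Paneth 2 and 3 had the most enterocyte RNA, as described below. Xist, which is transcribed from an inactive X chromosome, stood at 616 to 766 CPM in the Paneth and 2052 to 3333 CPM in the stem cell libraries, and the Y-linked Ddx3y at 1.13 to 2.87 CPM. These values go against the label male in all 6 libraries.

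Lyz1, Defa24, Lgr5 and Olfm4 followed the cell type labels, but with a wide spread. Of the other markers, chosen with earlier results of these data known, Itln1, Pla2g2a, Ang4 and Ascl2 also passed in the direction of the labels. Smoc2, a stem cell marker also in the set, is counted with the stem cell genes below but not described singly. Mmp7 and Axin2 did not pass, and Mptx2 was lower in Paneth libraries, as described below. Lyz1, the Paneth cell lysozyme (chr10:117287795-117292868), stood at 11701, 1527 and 3765 CPM in Paneth 1, 2 and 3 and at 919.7, 871 and 271 CPM in stem 1, 2 and 3. The groups did not overlap, and Paneth 2 lay nearest to the stem cell libraries. Lyz1 was higher in Paneth libraries by 3.04 ± 0.78 on the log2 scale (± is the SE of a log2 change; adjusted p = 0.0135, edgeR quasi-likelihood test with Benjamini-Hochberg adjustment over all genes, the test behind every adjusted p here unless another is named). Defa24, an alpha-defensin (chr8:21734494-21735471), stood at 9815, 1281 and 4038 CPM against 771, 744 and 194 CPM and was higher by 3.15 ± 0.79 (adjusted p = 0.0125). Both calls were lost without Paneth 1 (adjusted p = 0.0941 for Lyz1 and 0.113 for Defa24) and without stem 3 (0.0598 and 0.0512). On the stem cell side, Lgr5 (chr10:115450314-115587780), the receptor that marks these cells, stood at 55.1, 17.0 and 22.6 CPM in Paneth and at 111, 86.0 and 82.9 CPM in stem cell libraries. It was lower in all 3 Paneth libraries, with a log2 change of -1.58 ± 0.42 (adjusted p = 0.0148), and the call was lost without Paneth 3 (0.0748) or stem 1 (0.0559). Olfm4 (chr14:80000302-80023141), a secreted stem cell marker, stood at 777, 337 and 464 CPM against 3537, 2157 and 4353 CPM, with a log2 change of -2.67 ± 0.43 (adjusted p = 0.0016).

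**Figure D1:**
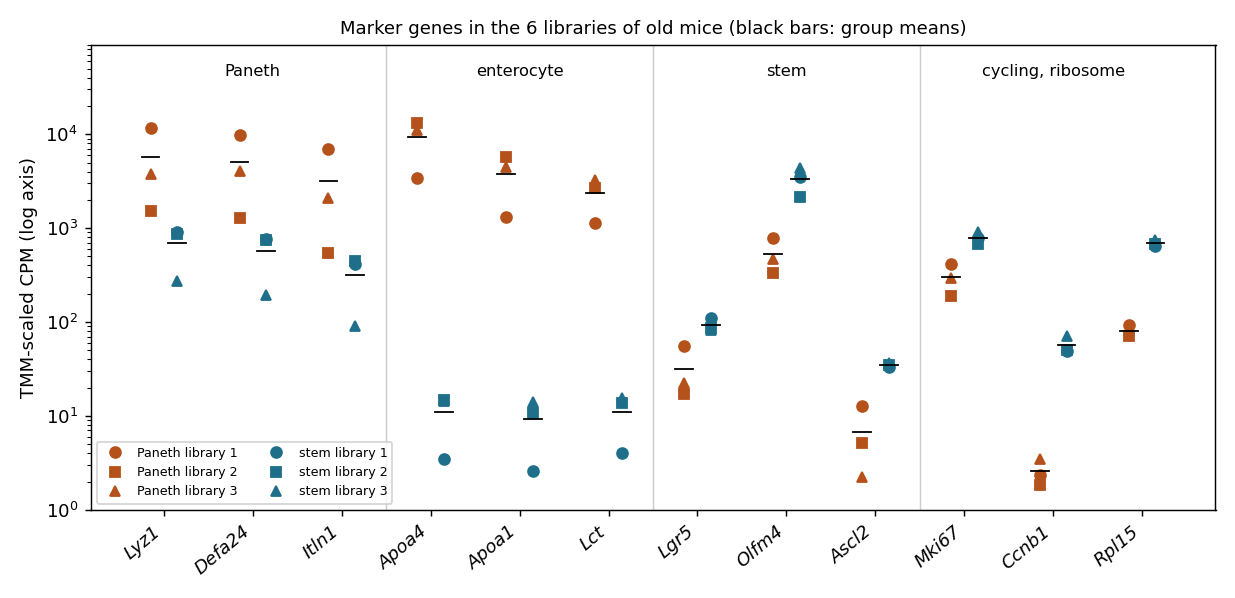
TMM-scaled CPM (log axis) of 12 genes in the 3 Paneth (orange) and 3 stem cell (blue) libraries of old mice, with black bars at the group means. Paneth 1 (circle) was the highest Paneth library for Lyz1, Defa24 and Itln1 and the lowest for Apoa4, Apoa1 and Lct.

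Across the genome, 3654 genes were higher and 3837 lower in Paneth libraries among 16846 tested, or 21.7% and 22.8% at an adjusted p under 0.05 (44.5% in all). The CPM of the groups did not overlap for 9546 genes (56.7%). These shares are the background for the gene groups below. The balance between directions rested on the scaling: with library totals in place of TMM, all changes shifted by a median of -0.64 and 2013 genes were higher and 6861 lower. Changes below are relative to the TMM scale. Where libraries were left out the filter on low counts was applied anew, so the number of list members tested could differ, and with fewer libraries a call can be lost while the change stays as large.

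Genes of the Paneth cell granule were higher in the Paneth libraries. Of 20 alpha-defensin genes tested, 15 rose and none fell, with a median log2 change of 3.14 against 0.00 over all genes. Their summed level was 36250 CPM in Paneth 1, 4868 in Paneth 2 and 14570 in Paneth 3, against 2438, 2313 and 625 in the stem cell libraries. The groups did not overlap, and Paneth 1 held the most. Reads on defensins and Lyz1 together made up 1.81% ± 1.43 of Paneth and 0.312% ± 0.176 of stem cell libraries (SD, n = 3 each, exact permutation p = 0.1). The count of 15 fell to 6 without Paneth 1 and to 8 without stem 3. Defensin genes are near-identical copies clustered on chromosome 8, so reads may have been split between them and single members are uncertain. Gm15284 stood at 8004, 1262 and 3758 CPM against 303, 346 and 113 CPM, a log2 change of 4.10 ± 0.73 (adjusted p = 0.00269). Defa25 had 65 reads in the Paneth and 2 in the stem cell libraries, a ratio of 120 after scaling (95% exact binomial interval 32.0 to 1010, counting error only).

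Promoter windows of 300 bases (250 before to 50 after the start, RefSeq, build GRCm38.p6) were read for the 9 of 20 tested defensins that have one in the table, since a TCF/LEF factor is the textbook route to these genes. The TCF/LEF motif CTTTGAT was searched on both strands (its reverse is ATCAAAG, which shares CAAAG with the HNF4 motif used further below). It was present in 7 of the 9 windows (77.8%), against 2.80% of windows of all tested genes and 3.73% of all windows in the table. The paralogs share sequence, so the 9 windows are not independent, and a match is a description of letters and not a site. A window with a pair of matches, one with a single match and one with none are shown, because they differ in the motif while all 3 genes were higher in Paneth libraries. Capitals mark the TCF/LEF motif and the CCAAT box on either strand.
Defa23 (chr8:21054790-21055089, plus strand): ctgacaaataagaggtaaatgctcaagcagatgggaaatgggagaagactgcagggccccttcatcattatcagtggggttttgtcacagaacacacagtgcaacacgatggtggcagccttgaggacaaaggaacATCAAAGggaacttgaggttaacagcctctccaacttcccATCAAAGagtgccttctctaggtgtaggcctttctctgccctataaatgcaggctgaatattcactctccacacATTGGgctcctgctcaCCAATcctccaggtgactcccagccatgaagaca
Gm15284 (chr8:21134400-21134699, plus strand): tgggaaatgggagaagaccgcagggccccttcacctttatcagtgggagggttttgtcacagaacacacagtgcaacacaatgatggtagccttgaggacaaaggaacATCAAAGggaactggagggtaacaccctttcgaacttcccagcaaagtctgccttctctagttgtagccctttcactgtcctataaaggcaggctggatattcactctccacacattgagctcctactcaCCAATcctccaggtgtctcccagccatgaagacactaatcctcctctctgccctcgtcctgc
Gm14851 (chr8:21096001-21096300, minus strand): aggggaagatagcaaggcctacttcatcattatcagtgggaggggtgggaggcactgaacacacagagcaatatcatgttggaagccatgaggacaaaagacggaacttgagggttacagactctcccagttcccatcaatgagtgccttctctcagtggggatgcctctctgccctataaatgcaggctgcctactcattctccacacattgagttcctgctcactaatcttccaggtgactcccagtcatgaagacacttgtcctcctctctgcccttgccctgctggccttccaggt
Defa23 stood at 3992, 590.1 and 1638 CPM in Paneth against 217, 240.0 and 64.0 CPM in stem cell libraries (log2 change 3.58 ± 0.76, adjusted p = 0.00588). Gm14851, whose window holds no match, stood at 2957, 366 and 896 CPM against 231, 201 and 49.5 CPM (3.13 ± 0.83, adjusted p = 0.0153). Both genes were higher in every Paneth library than in every stem cell library. Among genes called higher and lower across the genome, 3.13% and 3.01% of windows held the motif.

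Of 19 other granule genes tested, Lyz1 among them, 11 rose and 2 fell, with a median of 3.03. Itln1, a lectin that binds microbial sugars, stood at 7012, 546 and 2080.3 CPM against 411, 441 and 91.0 CPM (3.35 ± 0.94, adjusted p = 0.0191). Pla2g2a, a secreted bactericidal phospholipase, stood at 56.8, 6.15 and 18.1 CPM against 4.43, 2.61 and 0.54 CPM (3.38 ± 0.89, adjusted p = 0.0147). Both followed the order of Lyz1, with Paneth 1 highest and Paneth 2 lowest. Ang4, a microbicidal ribonuclease, stood at 413, 40.8 and 120.1 CPM against 47.4, 32.0 and 8.68 CPM; it passed the test (2.70 ± 0.85, adjusted p = 0.0316) although Paneth 2 lay below stem 1. Mmp7, the protease that activates alpha-defensins, did not pass in the main fit (113, 20.1 and 47.5 CPM against 29.9, 27.6 and 12.9 CPM, 1.35 ± 0.58, adjusted p = 0.0889). It passed with DESeq2 (1.41, adjusted p = 0.0402) and without Paneth 2 (1.78, 0.0157). The 11 became 7 without Paneth 1 and 6 without stem 3. Without Paneth 1, the adjusted p was 0.177 for Itln1, 0.278 for Ang4 and 0.0566 for Pla2g2a, and without stem 3 it was 0.0717, 0.102 and 0.0501. The log2 changes without Paneth 1 were 2.06, 1.45 and 2.27. Leaving out stem 2 also ended these calls (0.0509, 0.089 and 0.0548) although the log2 changes were 3.67, 2.76 and 3.40, as did leaving out stem 1 for Itln1 (0.0557) and Ang4 (0.0503), and Paneth 3 for Ang4 (0.0555). The granule list's 4 members with the smallest p were Reg3a, Guca2b, Nupr1 and Clps (adjusted p = 0.0555 for Nupr1 without Paneth 1). Reg3a and Guca2b, which enterocytes also make, were highest in Paneth 2 and not in Paneth 1: Guca2b stood at 112, 422 and 334 CPM against 6.05, 13.5 and 9.93 CPM (4.88 ± 0.56, adjusted p = 0.00039). The 2 granule genes that fell were Mptx2 and Reg3g, described with the ages below.

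Regulators of the secretory lineage showed no common direction, with 3 higher and 3 lower of 13 (median 0.26). Bhlha15, a factor of secretory cell maturation, was higher at 55.1, 12.3 and 26.4 CPM against 8.53, 8.07 and 7.43 CPM (1.94 ± 0.48, adjusted p = 0.011; 0.0535 without stem 3). Ephb3, the receptor that holds Paneth cells at the crypt base, was lower at 56.1, 21.5 and 18.0 CPM against 105, 85.8 and 100.7 CPM (-1.63 ± 0.41, adjusted p = 0.0127; 0.0532 without Paneth 3). Atoh1, which specifies secretory cells, did not pass in the main fit (-1.43 ± 0.56, adjusted p = 0.0671). It passed as lower with DESeq2 (adjusted p = 0.0435), limma-voom (0.00532), library totals (0.00922) and without Paneth 1 (0.00372). It also passed without a filter (0.0424), with a replicate block (0.0469) and with an offset for transcript length and GC (0.0378). Without Paneth 1, 3 of 14 then tested rose and 6 fell (median -0.40); without Paneth 3, 2 of 14 rose and 1 fell; without stem 1 or 2, 1 rose and 2 fell; and without stem 3, none rose and 3 fell. With library totals 1 of 13 rose and 6 fell (median -0.44). Of 30 genes of the endoplasmic reticulum and secretion, none rose and 7 fell (median -0.12), among them Ssr4, Pdia6, Agr2 and Sec61b with log2 changes of -1.63, -1.62, -2.27 and -1.15. With an offset for transcript length and GC, 6 of these 30 rose and 5 fell, without Paneth 1 it was 7 and 10, without stem 3 it was 0 and 4, and with library totals 17 fell. Slc30a2, a zinc transporter of secretory granules, was the only one of 8 zinc genes to pass, at 59.5, 66.7 and 71.8 CPM against 20.9, 19.9 and 21.6 CPM (1.67 ± 0.20, adjusted p = 0.000443). Without Paneth 1, 4 zinc genes rose and 1 fell. With Paneth 1 as the only Paneth library the median of the zinc genes was -0.80, against 0.29 in the main fit.

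Of 14 signals that Paneth cells or their neighbours send to stem cells, 3 rose and 2 fell (median 0.99), and without Paneth 1, 6 rose. Wnt3, the Wnt ligand of Paneth cells, stood at 29.7, 6.15 and 4.49 CPM against 3.35, 4.56 and 5.53 CPM. Its groups overlapped and it did not pass in the main fit (1.52 ± 0.67, adjusted p = 0.095). It passed with DESeq2 (adjusted p = 0.0367) and without Paneth 3 (0.0461). Egf (0.82 ± 0.36, adjusted p = 0.0956) and the Notch ligand Dll4 (0.04 ± 0.37, adjusted p = 0.937) did not pass in the main fit either. Notum, a secreted enzyme that inactivates Wnt ligands, stood at 9.46, 3.90 and 5.34 CPM in Paneth libraries against 0.76, 0.55 and 0.83 CPM, with no overlap (3.08 ± 0.45, adjusted p = 0.00108). Bst1, an ectoenzyme that makes cyclic ADP-ribose, stood at 25.7, 101 and 91.2 CPM against 0.49, 0.65 and 1.66 CPM (6.30 ± 0.67, adjusted p = 0.000315). Areg, an EGF receptor ligand, stood at 90.6, 431 and 377 CPM against 28.4, 64.4 and 42.5 CPM (2.73 ± 0.57, adjusted p = 0.00522). Bst1 and Areg were lowest in Paneth 1, the reverse of the granule genes, and with Paneth 1 as the only Paneth library the change of Areg was 1.02. The Notch ligand Jag1 was lower, at 16.9, 19.1 and 17.0 CPM against 34.3, 47.0 and 36.0 CPM (-1.15 ± 0.22, adjusted p = 0.00388).

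Stem cell genes were lower in the Paneth libraries, with 21 of 29 lower and 1 higher (median -1.70). Ascl2, the Wnt-dependent regulator of stem cell identity, stood at 12.8, 5.13 and 2.25 CPM against 33.2, 34.6 and 36.5 CPM (-2.47 ± 0.51, adjusted p = 0.00532). Gkn3 stood at 6.42, 3.08 and 4.64 CPM against 43.4, 41.1 and 46.9 CPM (-3.25 ± 0.30, adjusted p = 0.00018). Neither gene overlapped between the groups, and the stem cell libraries varied little. The member that rose was Nkd1, an inhibitor of Wnt signalling that is itself a Wnt target (1.80 ± 0.60, adjusted p = 0.0378), named after its value was seen. Its call was lost without Paneth 1 or any 1 stem cell library (adjusted p 0.0725 to 0.128) and with library totals (0.13). Without Paneth 3, 13 of the 29 fell. Of 22 Wnt target genes, 2 rose and 9 fell (median -0.85), and the 9 became 4 without Paneth 3, 5 without stem 1 and 14 with library totals. Axin2, a feedback inhibitor and standard Wnt readout, stood at 359.5, 62.8 and 139 CPM against 383, 365 and 358 CPM. Paneth 1 reached the stem cell level while Paneth 2 and 3 did not, and Axin2 did not pass (-0.98 ± 0.53, adjusted p = 0.165), but passed without Paneth 1 (-1.86, adjusted p = 0.000336). Of 32 Wnt receptors and pathway components, 6 rose and 8 fell (median -0.24), and the 8 became 5 without Paneth 3 or stem 1 3 without stem 2 or stem 3 and 18 with library totals. The nuclear partners of beta-catenin Tcf7l2 (115, 120.0 and 124 CPM against 21.3, 22.2 and 17.8 CPM, 2.55 ± 0.21) and Tcf7l1 (3.60 ± 0.31) rose, and Wls, which carries Wnt ligands to the cell surface, fell (10.1, 6.97 and 6.88 CPM against 40.7, 53.0 and 62.7 CPM, -2.73 ± 0.28). Of 17 Notch pathway genes, 2 rose and 7 fell (median 0.00 to 2 decimals). The falling members included the Notch target Hes1 (23.3, 12.5 and 10.2 CPM against 85.5, 72.8 and 82.5 CPM, -2.42 ± 0.32), the feedback inhibitor Nrarp (-1.78) and the receptor Notch2 (-1.88).

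**Figure D2:**
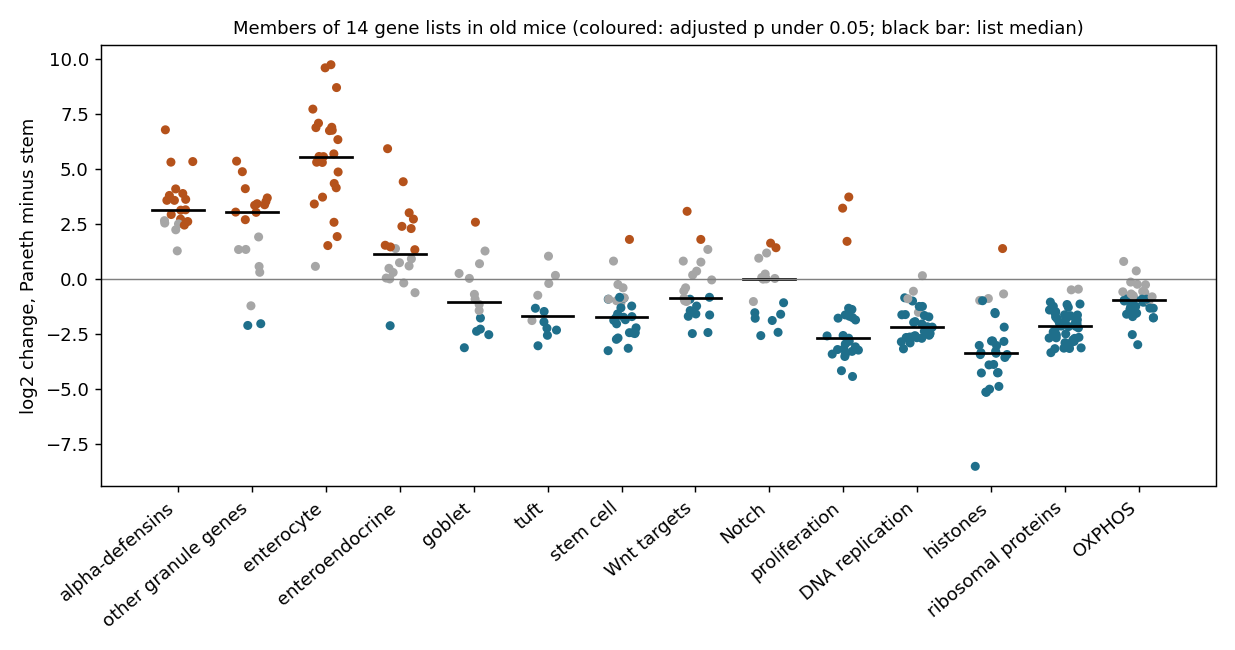
Log2 change, Paneth minus stem, of each tested member of 14 gene lists in old mice; points with an adjusted p under 0.05 are orange where higher and blue where lower in Paneth libraries, grey points did not pass, and black bars are list medians. Enterocyte genes had the highest median (5.57) and histone genes the lowest (-3.34).

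Genes of cell division were lower in the Paneth libraries. Of 25 proliferation genes 22 fell and 3 rose (median -2.68), of 31 DNA replication genes 27 fell and none rose (median -2.16), and of 29 histone genes 25 fell and 1 rose (median -3.34). The mitotic cyclin Ccnb1 stood at 2.37, 1.85 and 3.51 CPM against 49.2, 50.1 and 71.7 CPM (-4.42 ± 0.33, adjusted p = 0.000101). Its kinase partner Cdk1 stood at 3.38, 1.64 and 3.51 CPM against 47.5, 46.0 and 59.2 CPM (-4.16 ± 0.33, adjusted p = 0.000108). Mki67, the antigen of cycling cells, changed less, at 419, 192 and 295 CPM against 778, 675 and 900.0 CPM (-1.38 ± 0.32, adjusted p = 0.00899). The replication genes Prim1 and Mcm5 changed by -2.66 and -2.69, and the histone gene Hist1h4c stood at 3.04, 2.87 and 3.23 CPM against 71.0, 144 and 107 CPM (-5.13 ± 0.35). The 3 proliferation genes that rose were Mybl2, Ccne2 and E2f1, of which Ccne2 and E2f1 act at entry into DNA synthesis. Mybl2 stood at 608, 526 and 662 CPM against 39.2, 47.9 and 48.3 CPM (3.73 ± 0.25, adjusted p = 6.92e-05), Ccne2 changed by 3.22 and E2f1 by 1.71; the last of these, and Ccne2, were named after their values were seen. Histone messages mostly lack a poly(A) tail, and whether either kit selects for one is not given in the sources used here.

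The CCAAT box (CCAAT, both strands, reverse ATTGG) lay in 14 of 19 promoter windows of proliferation genes (73.7%) and 16 of 28 of DNA replication genes (57.1%), against 37.7% of windows of tested genes. It also lay in 7 of the 9 defensin windows (77.8%), whose genes were higher, and in 36.1% and 41.3% of windows of genes called higher and lower across the genome. The cell cycle element TTTGAAA (both strands, reverse TTTCAAA) lay in 4 of 19 proliferation windows (21.1%) against 4.64%. It also lay in 2 of 28 DNA replication windows (7.14%) and 2 of 17 windows of the other granule genes (11.8%). Among genes called higher and lower across the genome, 4.89% and 5.26% of windows held it. The Lyz1 window, of a gene higher in Paneth libraries, holds both the CCAAT box and this element. The Cdk1 window also holds both and is shown with both in capitals, on the minus strand.
Cdk1 (chr10:69352863-69353162, minus strand): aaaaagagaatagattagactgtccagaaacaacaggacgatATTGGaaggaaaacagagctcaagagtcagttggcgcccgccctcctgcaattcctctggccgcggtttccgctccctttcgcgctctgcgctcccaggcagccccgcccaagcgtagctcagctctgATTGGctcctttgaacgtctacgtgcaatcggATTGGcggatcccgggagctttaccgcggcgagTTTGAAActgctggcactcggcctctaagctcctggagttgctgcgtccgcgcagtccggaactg

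Ribosomal protein genes fell in 45 of 47 cases with none higher (median -2.14, median transcript length 699 bases against 1576 over all tested genes). Rpl15 stood at 92.2, 70.8 and 79.5 CPM against 648, 682 and 744 CPM (-3.10 ± 0.24, adjusted p = 0.000103), and Rpl9, Rps9 and Rps27 fell by 3.13, 2.92 and 2.53 on the log2 scale. Of 25 ribosome biogenesis genes, 15 fell and 1 rose (median -1.16), with Nop10 at -3.06 and Nhp2 at -2.41, and 23 fell without Paneth 1. Of 35 genes of oxidative phosphorylation, 22 fell and none rose (median -0.95). The count of 22 was 12 without stem 3, 13 without stem 2 and 12 with an offset for transcript length and GC. Of 20 genes of the citric acid cycle and pyruvate use 3 rose and 8 fell, and 6 rose without Paneth 1. Glycolysis had 5 higher and 2 lower of 20 (median 0.20), but 3 higher and 8 lower with library totals (median -0.41). It had 8 and 5 without Paneth 1, 4 and 4 without Paneth 2 (median -0.24), and 3 and 1 without Paneth 3 or any 1 stem cell library. With Paneth 1 as the only Paneth library, the median was -0.38 for glycolysis and -0.93 for the citric acid cycle list (-0.32 in the main fit). Pfkfb3, which makes the activator of glycolysis, stood at 52.7, 218 and 181 CPM against 9.83, 15.3 and 10.2 CPM (3.68 ± 0.51, adjusted p = 0.00088). Genes that are often used as constant references were not constant: 6 of 16 fell and 1 rose (4 without Paneth 1), with Ppia at 95.0, 77.1 and 74.9 CPM against 726, 727 and 896 CPM (-3.25 ± 0.25, adjusted p = 0.000103). All 3 Paneth libraries lay below all 3 stem cell libraries for Rpl15 and Ppia.

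Shorter transcripts were more often lower in the Paneth libraries. Over 15131 coding genes with a transcript length, split into 5 equal bins, the bin with the shortest transcripts (216 to 782 bases) had 14.9% higher and 34.9% lower, with a median log2 change of -0.42. The bin with the longest (2913 bases and more) had 29.5% higher and 13.7% lower, with a median of 0.34. The median length was 1966 bases for genes called higher and 1119 for genes called lower. Across 5 bins of transcript GC the share of higher genes moved between 19.8% and 23.4%. With an offset for transcript length and GC, 3283 genes were higher and 3678 lower. The part of length in each gene group was not tested beyond this offset, and it cannot be told apart from the kit.

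**Figure D3:**
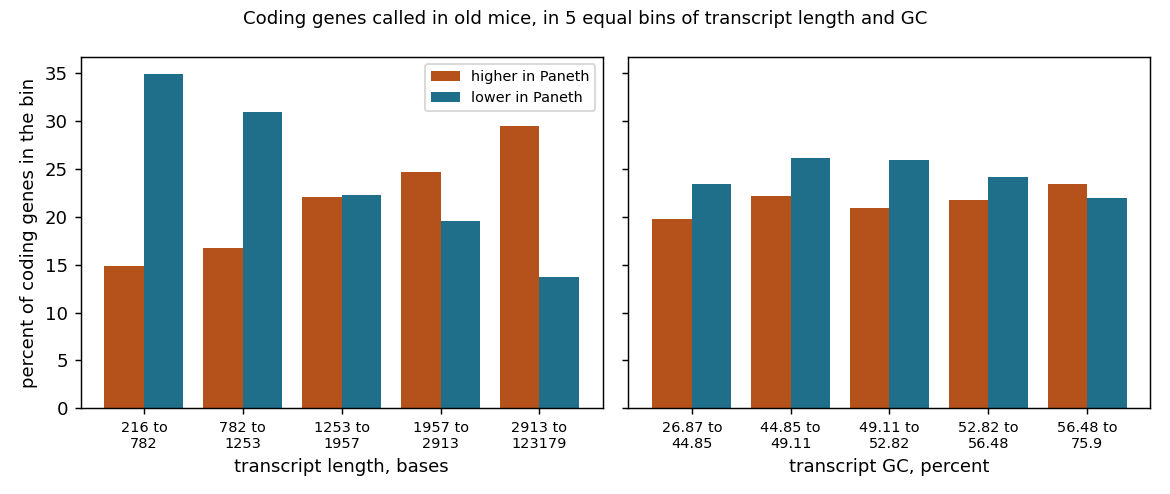
Percent of coding genes called higher (orange) and lower (blue) in Paneth libraries of old mice, in 5 equal bins of transcript length in bases (left) and of transcript GC in percent (right). The share of lower genes goes from 34.9% in the shortest bin to 13.7% in the longest, while the shares differ little across GC.

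Markers of absorptive villus cells were much higher in the Paneth libraries. Of 24 enterocyte genes 23 rose and none fell, with a median of 5.57. Their summed level was 15210 CPM in Paneth 1, 62400 in Paneth 2 and 52080 in Paneth 3, against 1443 to 2001 CPM in the stem cell libraries. Paneth 2 and 3 thus held more enterocyte RNA than Paneth 1, and every Paneth library held more than every stem cell library. Apoa4, an apolipoprotein of chylomicrons, stood at 3444, 13237 and 11213 CPM against 3.51, 14.9 and 14.3 CPM (9.73 ± 0.91, adjusted p = 0.000202). Per kilobase of transcript, Apoa4 was at 1898, 7293 and 6178 CPM in Paneth 1, 2 and 3 and Lyz1 at 9264, 1209 and 2981 CPM. Apoa4 was thus above Lyz1 in Paneth 2 and 3 and below it in Paneth 1. Defa24, at 23420, 3058 and 9638 CPM per kilobase, was above Apoa4 in Paneth 1 and 3 and below it in Paneth 2. Lct, the lactase of the brush border, stood at 1122, 2693 and 3229 CPM against 4.00, 13.8 and 15.6 CPM (7.72 ± 0.73). Slc15a1, the peptide transporter, stood at 163, 373 and 362 CPM against 5.56, 7.21 and 6.12 CPM (5.57 ± 0.39). Cyp3a11, a drug-metabolising cytochrome, stood at 68.3, 1533 and 536 CPM against 0.32, 1.00 and 1.43 CPM (9.59 ± 1.27). With Paneth 1 as the only Paneth library, 17 of the 24 were higher and 1 lower (median 4.25), and 7 of 20 defensins were higher (median 4.15, above the 3.14 with all 3 Paneth libraries); the lone library was then assumed to vary like the stem cell group. In bulk RNA, more cells of a type and more RNA per cell cannot be told apart, and the part of enterocyte RNA in the other differences was not tested.

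The HNF4 motif CAAAGTCCA (both strands, reverse TGGACTTTG) lay in 3 of 20 enterocyte windows (Alpi, Cyp3a11 and Treh, 15%) against 0.481% of windows of tested genes. Across the genome 0.726% of windows of genes called higher and 0.238% of genes called lower held it. The windows of Treh, the brush border trehalase (105, 422 and 385 CPM against 1.62, 3.61 and 3.27 CPM, 6.74 ± 0.64), and of Cyp3a11 are shown with the motif in capitals.
Treh (chr9:44672983-44673282, plus strand): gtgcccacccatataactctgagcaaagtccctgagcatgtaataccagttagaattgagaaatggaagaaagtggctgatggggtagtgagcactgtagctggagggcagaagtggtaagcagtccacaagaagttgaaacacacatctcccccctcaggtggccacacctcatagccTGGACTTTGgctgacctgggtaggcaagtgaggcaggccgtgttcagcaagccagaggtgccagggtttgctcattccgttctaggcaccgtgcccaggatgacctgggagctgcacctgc
Cyp3a11 (chr5:145879805-145880104, minus strand): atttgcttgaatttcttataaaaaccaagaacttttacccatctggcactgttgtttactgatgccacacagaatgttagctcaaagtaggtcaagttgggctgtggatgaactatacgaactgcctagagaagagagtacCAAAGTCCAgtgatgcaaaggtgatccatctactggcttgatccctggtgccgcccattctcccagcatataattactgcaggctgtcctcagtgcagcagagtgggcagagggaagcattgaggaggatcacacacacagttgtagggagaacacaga

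Other epithelial types differed in direction. Of 20 enteroendocrine genes 9 rose and 1 fell (median 1.13, summed 1640 to 5994 CPM against 444.5 to 895 CPM). Nkx2-2, a factor of hormone cells, stood at 283, 115 and 183 CPM against 4.32, 4.11 and 1.07 CPM (5.92 ± 0.59, adjusted p = 0.00025), and the hormone gene Sst at 35.5, 16.2 and 15.4 CPM against 0.97, 1.35 and 0.71 CPM (4.42 ± 0.46). Neurog3, which marks their progenitors, was the gene that fell (2.37, 2.05 and 2.25 CPM against 8.80, 12.9 and 7.13 CPM, -2.11 ± 0.36). Of 14 goblet cell genes 1 rose and 5 fell (median -1.03, summed 772 to 1988 CPM against 1599 to 3198 CPM), with the trefoil peptide Tff3 at 40.5, 11.3 and 21.2 CPM against 84.6, 167 and 162 CPM (-2.52 ± 0.47, adjusted p = 0.00323); 3 goblet cell genes rose without Paneth 2 and none without any 1 stem cell library. Of 12 tuft cell genes 7 fell and none rose (median -1.68, summed 43.9 to 74.0 CPM against 111 to 194 CPM), with the channel Trpm5 at -2.55 ± 0.46, and 3 of the 12 fell with all 13 libraries in 1 model. Tuft genes were low in both groups.

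Cells from outside the epithelium left few reads. Of 7 myeloid genes tested 3 rose and 1 fell (summed 78.8 to 207 CPM against 33.5 to 41.0 CPM), with the mannose receptor Mrc1 at 89.9, 27.5 and 40.7 CPM against 1.51, 0.90 and 2.56 CPM (4.98 ± 0.57). The gene that fell was Cd14, and its call was lost without Paneth 2 or 3 or stem 1 or 3 (adjusted p 0.0609 to 0.1). Lyz2 is a member of both this list and the granule list. Defining macrophage genes C1qa, C1qb and C1qc had 10, 12 and 8 reads over all 6 libraries and were not tested. Of 16 stromal and endothelial genes 7 rose and none fell (summed 105 to 174 CPM against 31.1 to 37.1 CPM), among them Col1a1 at 22.6, 11.7 and 16.3 CPM against 0.32, 0.50 and 0.42 CPM (5.30 ± 0.40, adjusted p = 0.000101), while Dcn and Lum had 28 reads each over the 6 libraries. Of 14 leukocyte genes 3 rose and 2 fell, with summed levels of 51.3 to 75.4 CPM against 79.2 to 86.5 CPM. Of 4 pancreatic acinar genes none rose and 2 fell, of 2 erythroid genes none passed, and of 4 genes of Brunner and gastric glands 1 rose (Muc6, 2.47 ± 0.36). Counts of the leukocyte list were 1 higher and 1 lower without Paneth 3 or stem 1. When single libraries were left out, the myeloid list had 0 to 2 lower (most without Paneth 1), the acinar list 0 to 1 higher and the erythroid list 0 to 2 higher (most without Paneth 1). The part of these cells in the other differences was not tested. Of 20 genes induced by stress or tissue dissociation 9 rose and 1 fell (median 1.01). Fosb, an immediate early factor, stood at 600.1, 804 and 930.1 CPM against 188, 140.4 and 141 CPM (2.32 ± 0.28, adjusted p = 0.000447). The count of 9 was 4 with library totals and 5 without stem 2 or without stem 3.

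Among 17 genes of senescence and inflammation 5 rose and 7 fell (median -0.24), and 3 and 6, 3 and 5 or 4 and 4 without stem 1, 2 or 3. Cdkn1a, the cell cycle inhibitor p21, stood at 35.5, 66.9 and 65.7 CPM against 12.4, 13.4 and 10.2 CPM (2.23 ± 0.29, adjusted p = 0.000699), and the cytokine Il1b at 24.0, 12.3 and 14.1 CPM against 1.19, 1.55 and 2.26 CPM (3.31 ± 0.40). Tnf, another cytokine, went the other way, with 3 reads in the Paneth and 1191 in the stem cell libraries, or 107-fold lower after scaling (95% exact binomial interval 36.6 to 521, counting error only). Ccl20, a chemokine of the gut epithelium, had 2 reads against 459 (62.0-fold lower, 17.1 to 514, counting error only). Of 24 mTOR and insulin pathway genes 2 rose and 5 fell (median -0.32), among them the receptor Igf1r (-1.50 ± 0.28); 11 fell without Paneth 1, and 1 rose without stem 3. Of 20 fatty acid oxidation genes 3 rose and 5 fell (median 0.11), with Echs1 lower (-1.60 ± 0.21); without Paneth 1 it was 6 and 6, and without Paneth 3 or stem 3 it was 3 and 3. Of 21 antigen presentation genes 4 rose and 2 fell (median -0.38), with 7 and 4 without Paneth 1, 2 and 7 without Paneth 3, 2 and 2 without stem 1 or stem 3, and 1 and 9 without Paneth 2 and 3. With library totals the counts were 0 and 16 for the mTOR list, 3 and 9 for fatty acid oxidation and 2 and 10 for antigen presentation.

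Histone genes, small RNAs, pseudogenes and predicted genes were not ranked by the size of change. Among the others with at least 5 CPM in the higher group and no overlap, 9 of the 12 largest rises and 10 of the 12 largest drops were in genes outside these lists. Nkx6-1, a homeobox factor known from the pancreas and nervous system, stood at 782, 222 and 333 CPM in Paneth libraries against 0.22, 0.30 and 0.18 CPM (10.83 ± 0.69, adjusted p = 6.57e-05). Cabp1, a neuronal calcium sensor, changed by 9.55 ± 0.64, and Ube2ql1, Ankrd63, Zic5, Olfr354 and Ankrd2 by 9.39, 9.14, 8.64, 8.36 and 8.21. Olfr1000, an olfactory receptor, had 136 reads in Paneth and none in stem cell libraries, at least 168-fold higher against a floor of 3 reads over the stem cell group. Of these genes, Nkx6-1, Ankrd63 and Ube2ql1 were highest in Paneth 1, whereas Apoa4, Apoa1 and Cyp3a11 of the enterocyte list and Cyp2c29, all among the 12 largest, were lowest there. Paneth 1 also had the largest share of reads on Esp38, Lars2 and Gm20594 (41.9%). In young mice Nkx6-1, Ankrd63 and Ube2ql1 were highest in young Paneth 2 (706, 3585 and 604 CPM), which had the largest share on those loci (66.2%). Lyz1 was highest in young Paneth 1 (24360 CPM). What sets the level of these genes was not tested. In classes chosen after the values were seen, 71 of 120 homeobox and other developmental factors rose and 2 fell (median 1.39), and 19 of 52 olfactory and vomeronasal receptors rose and 3 fell. These classes hold only genes that passed the filter on low counts. A gene almost absent from stem cell libraries passes that filter only where Paneth libraries hold enough reads. Part of the excess of rises may thus be set by the filter. After Tnf and Ccl20, the next drops in the ranking were Nox1, an NADPH oxidase of the gut epithelium (3 reads against 646, or 58.2-fold lower, interval 19.8 to 283, counting error only), and Bmper, a BMP-binding protein (1.01, 1.44 and 1.12 CPM against 46.9, 70.8 and 70.5 CPM, -5.69 ± 0.33). The agouti gene a, Trap1a, Nos2, Duox2, the antisense RNA Rab26os, Ube2t, Pxdn and Ceacam10 followed, between -5.45 and -4.54; without Paneth 2 and 3 the changes of Nos2 and Ceacam10 were -3.98 and -4.60 (adjusted p = 0.0718 and 0.0808). Nos2, the inducible nitric oxide synthase, and Duox2, a hydrogen peroxide-making oxidase, act with Nox1 in epithelial defence. Among noncoding RNAs, Malat1 was higher (12866, 12053 and 13267 CPM against 2344, 2015 and 2456 CPM, 2.49 ± 0.32) and Rmrp, the RNA of RNase MRP, lower (199, 114 and 181 CPM against 3533, 9258 and 2946 CPM, -5.00 ± 0.56; without Paneth 2 and 3, -4.72 with an adjusted p of 0.104).

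In young mice, 3079 of 15799 tested genes were higher and 2699 lower in Paneth libraries (19.5% and 17.1%). The young libraries are separate samples made with the same kits. Young stem 1 stood apart, with Xist at 10.7 and Ddx3y at 37.4 CPM, against 294 to 1736 CPM and 0.58 to 2.92 CPM in the other 6 young libraries, so it alone followed the label male. Of the 15653 genes tested at both ages, 2370 were called higher at both, which is 68.7% of those called higher in old and 77.7% of those called higher in young mice. Likewise 2174 were called lower at both, 57.1% of the old and 80.8% of the young calls. Without young stem 1, 59.7% of the old higher calls and 48.7% of the old lower calls were also called in young mice. Of 7258 genes called in old mice, 96.7% had a change of the same sign in young mice. In young mice 20 of 20 defensins rose (median 5.43), 18 of 19 other granule genes (4.12), 21 of 24 enterocyte genes (4.22) and 19 of 29 stem cell genes fell (median -1.38). Changes of single genes are set side by side in the plot of log2 changes at both ages, where Nkx6-1 stood at 10.83 in old and 10.69 in young mice.

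**Figure D4:**
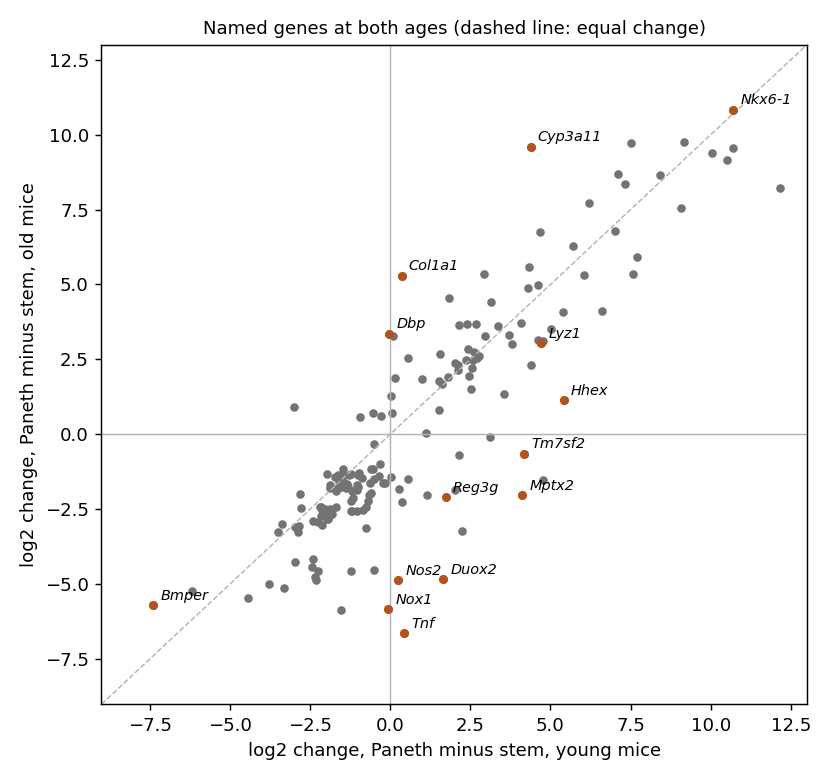
Log2 change, Paneth minus stem, of the named genes tested at both ages, in young (horizontal axis) and old mice (vertical axis), with the dashed line at equal change and some genes labelled. Most points lie in the quadrants of equal sign; Mptx2 stood at 4.12 in young and -2.02 in old mice.

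The test of the difference between the ages called none of 16960 genes (0%; smallest adjusted p = 0.0512, 1493 genes with an unadjusted p under 0.05, edgeR), while DESeq2 called 100 and limma-voom 1983. Without Paneth 1 of the old mice edgeR called 90, without young Paneth 4 it called 27 and without young stem 1 it called 17. In all, 8 genes were called at both ages in opposite directions: Mptx2, Reg3g, Selm, Ttbk1, Zbtb16, Ccdc87, Akr1c19 and a clone-named gene, of which the last 6 were named after their values were seen. Mptx2, a mucosal pentraxin made by Paneth cells (chr1:173274461-173277756), stood at 7.10, 7.18 and 3.23 CPM in old Paneth libraries and at 33.6, 28.2 and 7.43 CPM in old stem cell libraries. Scaled within the young libraries it stood at 1002, 551, 539.9 and 182 CPM in Paneth and 37.2, 32.2 and 28.5 CPM in stem cells. The log2 change was thus -2.02 ± 0.58 in old mice (adjusted p = 0.0212) and 4.12 in young mice, a difference of -6.06 (adjusted p = 0.0512 for the difference). The old change was lost without Paneth 1 or 3 or stem 1 or 2 (adjusted p 0.0673 to 0.09). Reg3g, an antibacterial lectin of Paneth cells and enterocytes, changed by -2.10 ± 0.68 in old (adjusted p = 0.0335; 0.0614 to 0.12 without Paneth 3 or any 1 stem cell library) and 1.74 in young mice, a difference of -3.75 (adjusted p = 0.14). Of the other 4 genes with the smallest p for the difference, Tm7sf2, Hhex and Atoh8 differed by -4.71, -4.18 and -6.21, and Dbp, a clock output factor, by 3.47 (adjusted p 0.0512 to 0.0703). The differences of Mptx2 and of these 4 genes all passed with DESeq2 (adjusted p 1.05e-09 to 1.22e-05), limma-voom (0.00047 to 0.00401) and library totals (0.026 to 0.0298). They also passed without old Paneth 1 (0.0121 to 0.0238), young Paneth 4 (0.00403 to 0.0341) or young stem 1 (0.0105 to 0.0347). None of them passed without old Paneth 2 or 3, old stem 1 or 2, young Paneth 1 or 3, or young stem 2 or 3. None passed with RLE size factors or the filter at 5 CPM either. With a replicate block Mptx2, Tm7sf2 and Hhex passed, and Atoh8 and Dbp did not. These genes were picked by the smallest p for this difference, and the refits use the same libraries. Dbp stood at 24.0, 30.8 and 30.8 CPM in old Paneth against 2.75, 3.86 and 1.72 CPM in old stem cell libraries (3.35 ± 0.34). Some of the largest old changes had no counterpart in young mice that passed the test. Tnf, Nox1, Nos2 and Duox2, all lower in old Paneth libraries, changed by 0.44 ± 0.66, -0.07 ± 0.56, 0.25 ± 0.73 and 1.66 ± 0.82 in young mice (adjusted p 0.138 to 0.937). Without young stem 1, Nos2 was higher in young Paneth libraries (1.98, adjusted p = 0.0273), and Tnf changed by 1.65 (adjusted p = 0.0558). Their differences between the ages were -6.97, -5.65, -5.02 and -6.37 (adjusted p = 0.0703, 0.0703, 0.236 and 0.103 for the difference). In young mice Tnf stood at 8.77, 11.3, 3.57 and 4.67 CPM in Paneth and 11.2, 2.80 and 1.64 CPM in stem cell libraries, so the groups overlapped. The collagen gene Col1a1 stood at 14.2, 29.0, 21.7 and 18.7 CPM in young Paneth and 27.5, 19.8 and 1.29 CPM in young stem cell libraries (0.36 ± 0.71, adjusted p = 0.721), and its difference between the ages was 5.03 (adjusted p = 0.12 for the difference).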

How the data were processed

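The authors deposited 1 table per library under the column name FPKM, but by their behaviour these are expected counts: between 69.77% and 77.49% of values under 20 lay within 0.001 of a whole number, per library. Per the submitters' processing notes the mm10 genome and DESeq were used, with no role or version given; aligner and counter: not given in the sources used here. RNA came from a RNeasy kit, per the labels. Rows were summed by Entrez ID to 35791 genes and rounded. Genes were tested with edgeR 4.0.16 (filterByExpr, TMM, robust quasi-likelihood, R 4.3.3) on the 6 old libraries alone, at an adjusted p under 0.05. The young comparison used its 7 libraries and the difference between the ages all 13. ± is an SD for levels and shares, and for log2 changes the absolute change divided by the square root of F. DESeq2 1.42.0 and limma 3.58.1 (voom) were alternatives, with other scalings, filters, left-out libraries and a replicate block. Positions and promoter windows are from RefSeq on GRCm38.p6, and transcript lengths from GENCODE M21. Named genes were, among those passing without overlap and at 5 CPM or more, the 12 largest changes each way (without histone genes, small RNAs, pseudogenes and predicted genes), up to 4 members with the smallest p for each of 34 lists, 5 genes with the smallest p for the difference between ages, the 5 loci with most reads per group and a set of markers. Members and lists were chosen with earlier results of these data known. On simulated counts for 15956 genes of this comparison the test recovered 10% of 100 changes of 2-fold and 88% of 100 of 4-fold. It also called 9 unchanged genes. The changed genes were drawn from those with a stem cell mean of at least 5 CPM, so recovery at lower levels was not tested. Far fewer genes were changed in those counts than the 44.5% called in the old mice, and the adjusted p depends on that share. Recovery at the share of the real comparison was not tested. A gene that did not pass may have changed. Total counts per library limit precision less than the spread between libraries.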

Additional observations from a re-analysis of the deposited data

How the results depend on the processing

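The counts of higher and lower genes stayed within 1.5 times under every alternative except library totals. Those gave 2013 higher and 6861 lower genes. Leaving out each library gave 2643 to 4496 higher and 2667 to 5054 lower genes. The count of genes that differ between the ages was 0 with edgeR, 15 with library totals, 6 without a filter, 100 with DESeq2, 1983 with limma-voom and 8 with a replicate block, and 0 to 90 when each library was left out. Whether same-numbered Paneth and stem libraries are pairs could not be told. Their deviations from the group means had correlations of -0.053 to 0.116, and those of different-numbered libraries -0.134 to 0.12. With 3 libraries per group this check cannot decide it. The replicate block gave 3223 higher and 3641 lower genes. Of 158 named genes that passed, 132 passed under every alternative that tested them (145 to 158 genes, fewest at 5 CPM in 3 libraries) and 0 reversed. Many of them were picked by a large change or a small p in these same libraries. This share therefore does not stand for all called genes. Genes that reversed had not passed: Slc39a14 was at 0 and Slc30a1 at -0.93 without aged Paneth 2 and 3, Rbpjl at 0 without aged Paneth 1 (0 to 1.28 over the left-out libraries), Fut9 at -0.03 with library totals and -1.5 without aged Paneth 2 and 3. Cel was at 0.01 with DESeq2, 1.06 without aged Paneth 2 and 3, and -1.02 to 0.34 over the left-out libraries (0.2 without Paneth 2, 0.29 without stem 2). Dll4 was at -0.65 with library totals, -0.08 without a filter, -0.24 with limma-voom, -0.07 with a replicate block, -0.25 with the length and GC offset, -0.41 without Paneth 1 and -0.05 without stem 3 (-0.41 to 0.38 over the left-out libraries). The causes were not tested. The length and GC offset and leaving out Paneth 2 and 3 were chosen after seeing the data. Depth limits genes with few reads, such as Tnf.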
